A study of Mus musculus with 8 samples.

Results

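Mki67, Hmmr and 7 further genes of the mitotic spindle, its midzone and cytokinesis were followed across mouse embryonic fibroblasts with and without a Dino mutation, with and without doxorubicin. The 9 genes, Mki67, Hmmr, Tpx2, Nusap1, Prc1, Racgap1, Ect2, Anln and Cep55, were all present among the 30419 names of the count table, and all 9 were among the 12255 genes with enough counts to be tested. The set was chosen by the measured difference between the doxorubicin responses of the genotypes: Mki67 and Hmmr fell less in mutant than in WT cells. That difference is therefore described here for every gene without a test. The other 7 are spindle and cytokinesis genes, also chosen with results of these data known.

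The cells were early-passage fibroblasts from E13.5 embryos. The 4 groups were mutant cells (Dino loxP/loxP) with 0.2 µg/mL doxorubicin, mutant cells without it (control), WT cells (Dino+/+) with the same dose, and WT cells without it (control), each with n = 2 libraries named A and B. Exposure lasted 8 h and 300000 cells were treated. The protocol describes the controls as given vehicle, while the sample annotation gives no agent. The labels call Dino loxP/loxP cells mutant and do not describe what the allele does to Dino RNA, which was not analysed here. Doxorubicin is a topoisomerase II poison that breaks DNA and activates p53. Dino is a noncoding transcript induced by p53 from a site next to Cdkn1a. Nothing in the labels says how many embryos the libraries come from or whether A and B were separate cultures, so the p-values measure the spread between these libraries, which may be technical.

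Total counts per library ran from 25482805 to 33285171, and the 9 genes had between 192 and 24967 counts in a library. Chi-square per degree of freedom between libraries A and B was 5.49 in mutant doxorubicin, 5.70 in mutant control, 18.3 in WT doxorubicin and 6.31 in WT control, so the WT doxorubicin pair lay farthest apart. All 10 listed fibroblast markers were present, with a summed level of 4330 to 5140 CPM (counts scaled to library size) in every library. Of 11 macrophage and leukocyte markers 10 were in the table and none was at 0 throughout. They summed to 24.4 to 27.7 CPM in mutant doxorubicin, 18.1 to 19.4 in mutant control, 19.8 to 24.1 in WT doxorubicin and 12.2 to 14.8 in WT control libraries, so they were higher with doxorubicin in both genotypes and higher in mutant than in WT cells at each treatment. The 5 endothelial markers, of which 1 was at 0 throughout, summed to 5.68 to 5.85 CPM in mutant doxorubicin, 1.34 to 1.73 in mutant control, 6.63 to 11.1 in WT doxorubicin and 2.08 to 2.96 in WT control libraries. The 6 epithelial markers summed to 3.68 to 4.51 CPM in mutant doxorubicin, 1.72 to 1.86 in mutant control, 5.51 to 5.73 in WT doxorubicin and 2.04 to 2.26 in WT control libraries. The 5 neural markers summed to 44.8 to 46.0 CPM in mutant doxorubicin, 57.7 to 58.1 in mutant control, 34.2 to 36.1 in WT doxorubicin and 33.4 to 33.5 in WT control libraries. The 5 skeletal muscle markers (1 at 0 throughout) and the 6 erythroid markers (4 at 0 throughout) summed to at most 4.90 and 0.469 CPM in any library. The part of these cells in the results below was not tested. Cdkn1a, a p53 target whose product p21 blocks cyclin-dependent kinases, rose with doxorubicin by an average log2 fold change of 2.48 ± 0.07 (SE, edgeR adjusted p = 1.33e-17). Its mean was lower in mutant than in WT cells at each treatment. It averaged 50.8 ± 1.28 CPM in mutant doxorubicin, 8.98 ± 0.526 in mutant control, 69.3 ± 4.48 in WT doxorubicin and 12.6 ± 1.76 in WT control libraries (SD, n = 2 each). Mdm2, another p53 target, averaged 1050 ± 20.9 CPM in mutant doxorubicin and 140 ± 6.53 in mutant control libraries. In WT cells Mdm2 averaged 1160 ± 64.6 CPM with doxorubicin and 136 ± 5.32 in controls (SD, n = 2 each). Its mean was thus lower in mutant cells with doxorubicin but not in controls. Xist, transcribed from the inactive X, averaged 522 ± 74.5 CPM in mutant doxorubicin, 233 ± 29.4 in mutant control, 0.304 ± 0.102 in WT doxorubicin and 0.277 ± 0.0236 in WT control libraries (SD, n = 2 each). The Y-linked Ddx3y averaged 59.6 ± 1.31, 74.0 ± 0.008, 460 ± 17.5 and 546 ± 48.4 CPM in mutant doxorubicin, mutant control, WT doxorubicin and WT control libraries (SD, n = 2 each). Mutant libraries thus held both Xist and Y-linked RNA, and the genotypes differed in sex-linked expression.

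A dividing cell builds a bipolar spindle, and at anaphase the spindle's overlapping microtubules form the midzone, which places the contractile ring that cleaves the cell and the midbody where the daughters finally separate. Hmmr, Tpx2 and Nusap1 act on spindle microtubules, Prc1 and Racgap1 organise the midzone, Ect2 and Anln act at the furrow, and Cep55 acts at the midbody. Ki-67, the product of Mki67, coats mitotic chromosomes and marks cycling cells. Many genes of late cell cycle are transcribed from promoters with a cell cycle genes homology region (CHR), which MuvB-containing complexes such as DREAM bind, and with boxes bound by NF-Y.

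Because all 9 genes moved the same way with doxorubicin, their annotated promoters were read from RefSeq's GRCm38.p6 sequences, from 250 bases before to 50 after the start. The table held 11 promoters for 8 of the 9 genes, with Tpx2 not among them. A CHR was searched as TTTGAA or TTCGAA and an NF-Y box as CCAAT, both on either strand, and these motifs do not overlap in the promoters shown. The promoters of Mki67 and Hmmr, the genes that chose the set, and those of the 3 further genes whose CHR lies nearest the start are printed here, with CHR and NF-Y matches in capitals. For Prc1 and Ect2, which have 2 annotated starts, the one with the nearer CHR is shown.
Mki67 (chr7:135716330-135716629, minus strand): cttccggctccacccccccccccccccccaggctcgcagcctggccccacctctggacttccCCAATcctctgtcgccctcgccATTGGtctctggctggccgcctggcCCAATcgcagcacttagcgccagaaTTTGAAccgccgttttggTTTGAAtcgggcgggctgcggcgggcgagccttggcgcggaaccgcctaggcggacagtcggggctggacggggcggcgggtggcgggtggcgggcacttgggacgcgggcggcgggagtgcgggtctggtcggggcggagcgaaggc
Hmmr (chr11:40733388-40733687, minus strand): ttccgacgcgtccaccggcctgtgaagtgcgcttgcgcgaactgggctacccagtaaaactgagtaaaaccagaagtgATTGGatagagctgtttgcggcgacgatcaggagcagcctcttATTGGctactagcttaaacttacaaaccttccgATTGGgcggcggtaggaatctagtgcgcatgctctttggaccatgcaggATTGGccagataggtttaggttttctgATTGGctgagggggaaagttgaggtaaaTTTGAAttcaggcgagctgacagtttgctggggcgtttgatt
Prc1 (chr7:80294201-80294500, plus strand): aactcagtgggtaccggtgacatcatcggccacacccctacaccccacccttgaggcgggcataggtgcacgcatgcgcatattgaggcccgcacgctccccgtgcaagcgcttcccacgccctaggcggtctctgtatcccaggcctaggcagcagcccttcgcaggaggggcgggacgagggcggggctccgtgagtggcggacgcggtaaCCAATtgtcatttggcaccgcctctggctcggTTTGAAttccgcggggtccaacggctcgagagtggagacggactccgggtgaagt
Racgap1 (chr15:99651607-99651906, minus strand): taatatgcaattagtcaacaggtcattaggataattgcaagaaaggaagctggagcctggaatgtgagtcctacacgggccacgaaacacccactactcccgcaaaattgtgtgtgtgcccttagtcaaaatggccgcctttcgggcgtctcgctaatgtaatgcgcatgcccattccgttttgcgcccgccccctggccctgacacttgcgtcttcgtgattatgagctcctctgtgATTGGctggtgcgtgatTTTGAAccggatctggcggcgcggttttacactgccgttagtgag
Ect2 (chr3:27153805-27154104, minus strand): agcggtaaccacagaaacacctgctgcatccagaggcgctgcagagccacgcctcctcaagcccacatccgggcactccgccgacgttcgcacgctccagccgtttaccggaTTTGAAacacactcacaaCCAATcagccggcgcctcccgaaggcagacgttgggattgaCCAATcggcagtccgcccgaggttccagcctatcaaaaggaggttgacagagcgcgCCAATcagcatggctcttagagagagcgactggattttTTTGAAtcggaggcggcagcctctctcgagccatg

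A CHR was found in the promoters of 7 of the 8 genes, that is Mki67, Hmmr, Prc1, Racgap1, Ect2, Anln and Cep55. Counted by promoter it was in 10 of 11, against 19.2% of all 32851 promoters in the table and 13.8% of those of tested genes. In Hmmr it began at base 9 after the start, in Racgap1 at base 6 and in Prc1 at base -5 from the first annotated start. In Mki67 TTTGAA occurred at bases -116 and -98. For Mki67, Hmmr, Anln and the first start of Cep55, the bases just after the RefSeq start were not found near the 5′ end of a GENCODE M21 transcript of the gene, so positions in these promoters hold for the RefSeq start alone. An NF-Y box was found in 5 of the 8 genes, with 5 copies in Hmmr and 3 in Mki67. By promoter it was in 7 of 11, against 37.4% of all promoters and 37.7% of those of tested genes. An E2F site, searched as TTTGGCGC, TTTGCCGC, TTTCGCGC or TTTCCCGC, was in none of the 11 promoters. It was in 2.26% of all promoters and 3.86% of those of tested genes, so its absence from 11 promoters says little. The Nusap1 promoter held none of these motifs. Such matches describe the letters in these windows and are not evidence of binding.

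**Figure D1:**
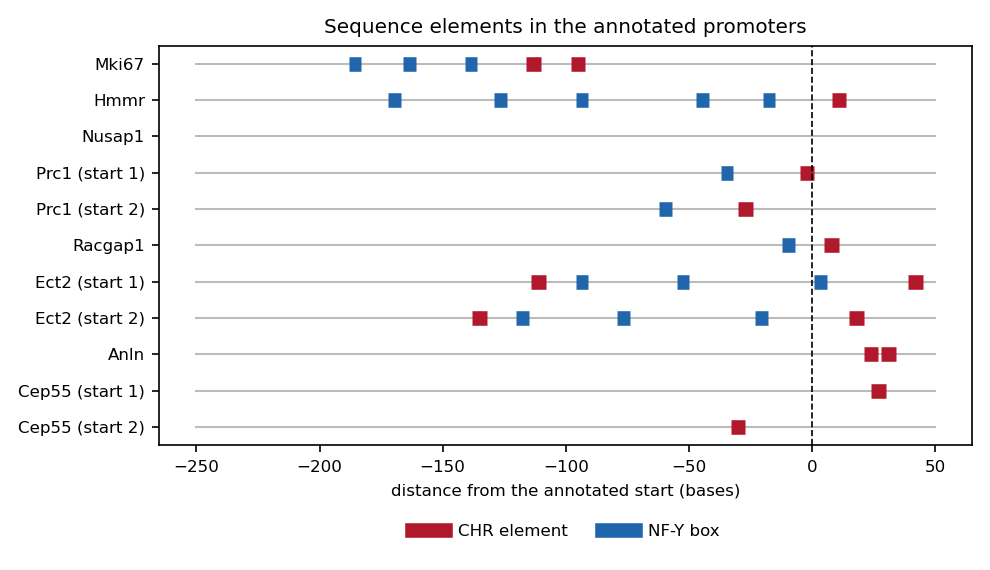
Positions of CHR matches (red) and NF-Y box matches (blue) in the 11 annotated promoters of 8 genes; the x axis is the distance in bases from the annotated start (dashed line). Of the 8 genes, 7 have a red mark, and Hmmr has 5 blue ones.

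The first comparison asked how these genes respond to DNA damage in both genotypes together. All 9 genes fell with doxorubicin in the average of the mutant and WT responses, by log2 fold changes between -1.79 for Racgap1 and -0.37 for Cep55. The average response is orthogonal, in this balanced design, to the difference that chose the set, and it was tested over all genes. The 9 genes were still chosen with results of these data known, Mki67 and Hmmr as genes that fell less in mutant cells. The count of members called lower is therefore a description and not independent of the choice. By edgeR's quasi-likelihood test with Benjamini-Hochberg adjustment, 9 of 9 were called lower, where 32.6% of all tested genes were, and 33.7% were called higher. Their median log2 fold change was -1.07, against 0.02 over all genes. The largest edgeR adjusted p among them was 1.99e-07, for Cep55, and leaving out any one library kept all 9 called. In bulk RNA, fewer dividing cells and less of these RNAs per cell cannot be told apart.

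Mki67 stood at 52.2 and 54.3 CPM in mutant doxorubicin libraries A and B, against 118 and 114 CPM in mutant control libraries. In WT cells it stood at 32.8 and 36.1 CPM with doxorubicin, against 116 and 123 CPM in controls. The treated libraries lay below the controls in both genotypes, and the WT treated pair was lowest. The average log2 fold change was -1.46 ± 0.05 (SE), with an edgeR adjusted p of 9.26e-16, and Mki67 kept 45.8% of its control level in mutant cells and 28.9% in WT cells.

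Among the spindle assembly genes, Hmmr encodes a microtubule-binding protein of the spindle poles, and it had 35.7 and 40.6 CPM in mutant doxorubicin libraries, against 46.1 and 47.3 CPM in mutant controls. In WT cells Hmmr had 22.3 and 23.2 CPM with doxorubicin, against 48.9 and 45.3 CPM in controls. The mutant treated libraries thus sat between the other treated pair and the controls, without overlap on either side. Hmmr's average log2 fold change was -0.67 ± 0.06 (edgeR adjusted p = 3.38e-09).

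Tpx2, which switches on Aurora A kinase and nucleates spindle microtubules, had 39.3 and 38.8 CPM in mutant doxorubicin libraries, against 96.4 and 92.1 CPM in mutant controls. It had 33.0 and 33.4 CPM in WT doxorubicin libraries, against 93.1 and 99.6 CPM in WT controls. Of Hmmr, Tpx2 and Nusap1 it had the deepest average fall, -1.41 ± 0.05 (edgeR adjusted p = 1.56e-15). Nusap1, which stabilises spindle microtubules near chromosomes, had 37.9 and 39.4 CPM in mutant doxorubicin libraries, against 61.3 and 51.9 CPM in mutant controls. It had 28.4 and 26.5 CPM in WT doxorubicin libraries, against 56.3 and 57.6 CPM in WT controls. Its mutant control libraries differed from each other more than the other pairs did, and they did not overlap the treated ones. The average log2 fold change of Nusap1 was -0.80 ± 0.06 (edgeR adjusted p = 2.25e-10). In the GRCm38 annotation 172 exonic bases of Nusap1 overlap Oip5 on the other strand, and 911 of Prc1 overlap Rccd1. The strand setting of the counting is not given in the sources used here, so it is not known how reads within these bases were counted.

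Of the midzone genes, Prc1, which cross-links antiparallel microtubules, had 84.2 and 87.5 CPM in mutant doxorubicin libraries, against 162 and 161 CPM in mutant controls. In WT cells it had 65.9 and 68.9 CPM with doxorubicin, against 163 and 155 CPM in controls. The controls of the genotypes overlapped, and the mutant treated pair lay above the WT treated pair. Racgap1, the GTPase-activating subunit of centralspindlin, had 10.0 and 7.63 CPM in mutant doxorubicin libraries, against 28.0 and 27.3 CPM in mutant controls. In WT cells Racgap1 had 8.28 and 6.01 CPM with doxorubicin, against 26.5 and 28.0 CPM in controls. Racgap1 had the deepest average fall of the 9 genes, -1.79 ± 0.09 (edgeR adjusted p = 2.31e-13), and it was the one gene whose treated libraries overlapped between the genotypes. Prc1 fell by 1.07 ± 0.05 on the log2 scale (edgeR adjusted p = 3.25e-14).

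At the furrow, Ect2, a guanine nucleotide exchange factor that binds Racgap1, had 483 and 466 CPM in mutant doxorubicin libraries, against 749 and 721 CPM in mutant controls. In WT cells it had 401 and 369 CPM with doxorubicin, against 764 and 733 CPM in controls. All 4 treated libraries lay below the controls, those of WT cells lowest. Anln, the scaffold that ties actin and myosin together in the contractile ring, had 50.9 and 51.0 CPM in mutant doxorubicin libraries, against 101 and 96.8 CPM in mutant controls. In WT cells Anln had 46.7 and 40.0 CPM with doxorubicin, against 96.5 and 106 CPM in controls. The mutant treated libraries of Anln lay close together and above both WT treated ones. The average log2 fold changes were -0.79 ± 0.05 for Ect2 and -1.09 ± 0.06 for Anln, with edgeR adjusted p of 2.11e-12 and 4.65e-13. Cep55, which recruits the abscission machinery to the midbody, moved least. It had 341 and 348 CPM in mutant doxorubicin libraries, against 399 and 386 CPM in mutant controls. In WT cells Cep55 had 256 and 260 CPM with doxorubicin, against 382 and 378 CPM in controls, and its average log2 fold change was -0.37 ± 0.04.

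**Figure D2:**
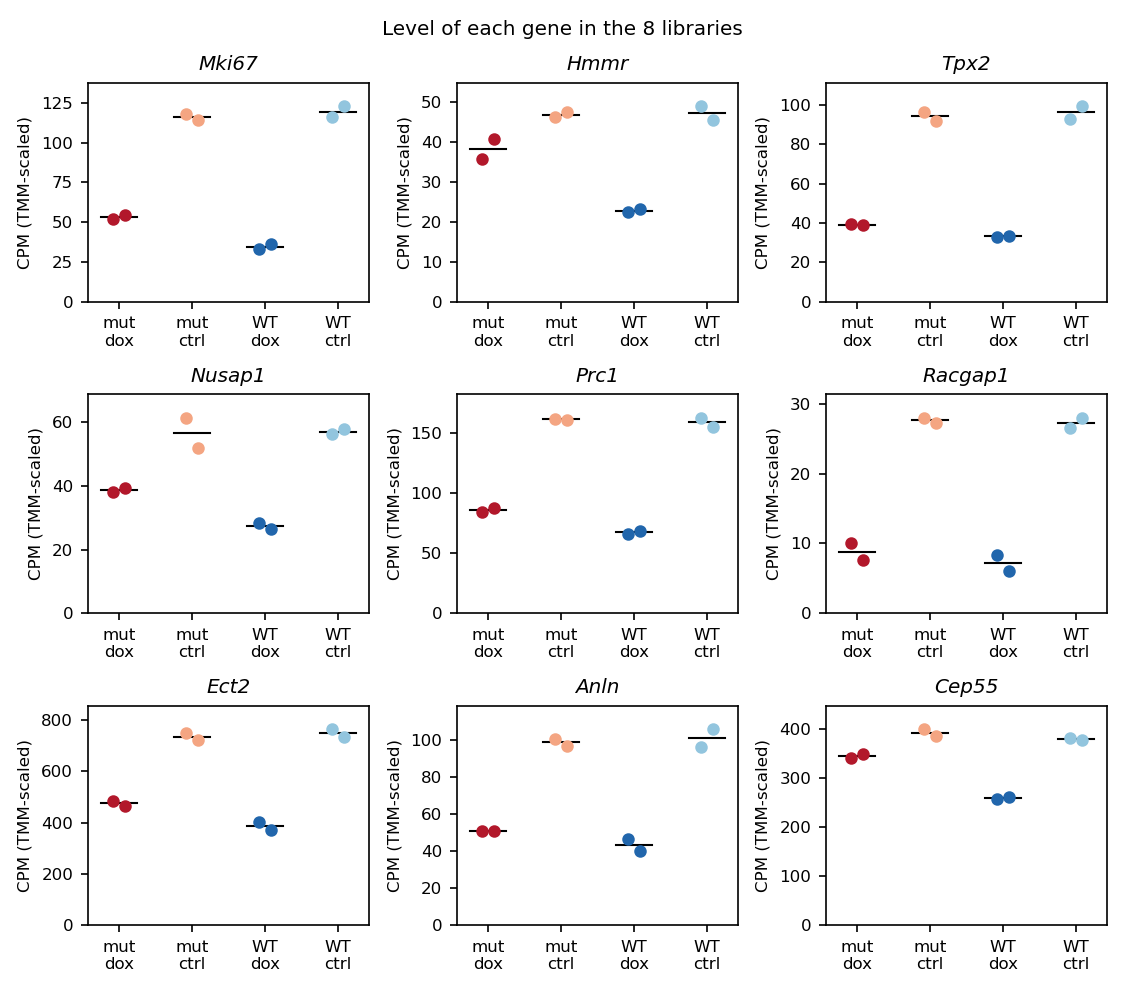
Level of each of the 9 genes in CPM scaled by TMM (y axes from 0) in the 4 groups, with 1 point per library, a bar at the mean, dox for doxorubicin, ctrl for control and mut for mutant. In every panel both treated pairs lie below the controls of their genotype, as Mki67 at 52.2 and 54.3 CPM against 118 and 114 CPM in mutant cells.

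Both treated libraries lay below both controls of their genotype in 9 of 9 genes in mutant cells, where 37.7% of all tested genes did so, and in 9 of 9 in WT cells, where 38.3% did. By group mean, WT doxorubicin was lowest in all 9 genes and mutant doxorubicin lay between it and the controls. The choice of the set had used this order in part, and its share over all tested genes was not counted, so it is a description. Of the controls, the mutant ones were higher for Prc1, Racgap1 and Cep55 and the WT ones for the other 6. Mutant controls lay above WT controls without overlap in 1 of 9 genes, where 21.5% of all tested genes did so. That gene was Cep55, whose mutant controls were 386 and 399 CPM and WT controls 378 and 382 CPM. Mutant doxorubicin libraries lay above WT doxorubicin libraries without overlap in 8 of 9 genes, a description that the choice of the set had used in part, where 23.4% of all tested genes did so. Across the 8 libraries the Pearson r of log2 CPM between any pair of the 9 genes ran from 0.820 (Hmmr and Racgap1) to 0.995 (Mki67 and Prc1), with a median of 0.966 over 36 pairs. These libraries share the treatment, which separates them for each of the 9.

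The response within each genotype was read next. These values share libraries with the difference that chose Mki67 and Hmmr, and nothing about that difference is supported by them. The choice also favoured a small fall in mutant cells and a large one in WT cells for Mki67 and Hmmr. Their calls within a genotype are therefore not independent of it. In mutant cells 9 of 9 genes passed edgeR's test as lower (25.9% of all genes did), with a median log2 fold change of -0.91 against 0.01 over all genes. In WT cells 9 of 9 passed as lower (28.1% of all genes did), with a median of -1.22 against 0.01. Racgap1 was at -1.65 ± 0.13 in mutant and -1.93 ± 0.13 in WT cells, and Tpx2 was at -1.27 ± 0.08 in mutant and -1.54 ± 0.08 in WT cells. Hmmr was at -0.29 ± 0.09 in mutant cells (edgeR adjusted p = 0.00686), against -1.05 ± 0.09 in WT cells. Cep55 was at -0.19 ± 0.06 in mutant cells (edgeR adjusted p = 0.0151), against -0.56 ± 0.06 in WT cells.

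The calls of both small mutant responses depended on single libraries. Hmmr in mutant cells was no longer called without mutant doxorubicin library A (log2 fold change -0.20, edgeR adjusted p = 0.125) or mutant control library B (-0.27, adjusted p = 0.0547). Cep55 was no longer called without mutant doxorubicin library A (-0.17, adjusted p = 0.0977) or B (-0.20, adjusted p = 0.0513) or mutant control library A (-0.17, adjusted p = 0.104). All 9 WT responses stayed called when any one library was left out, the widely spread WT doxorubicin libraries included.

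**Figure D3:**
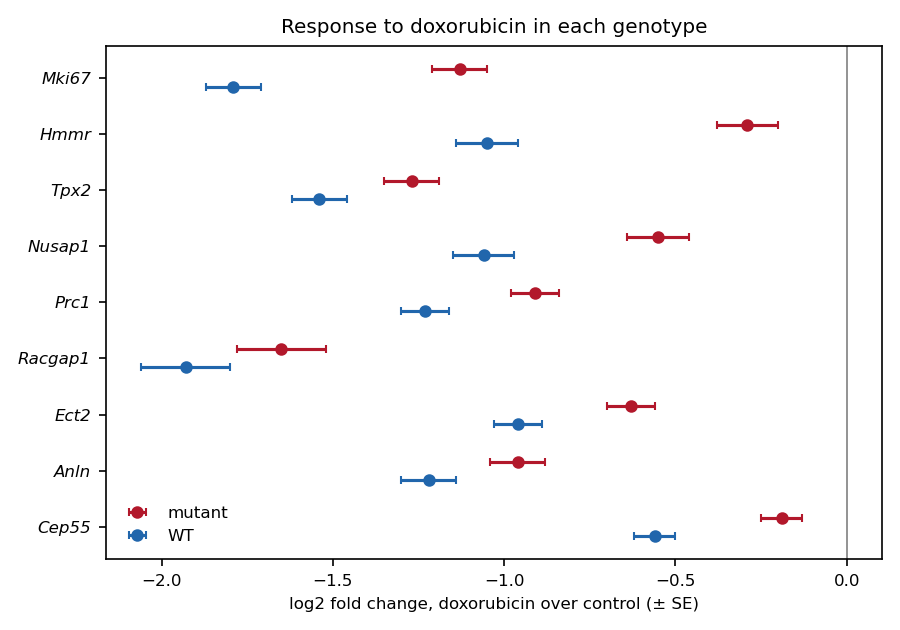
Log2 fold change of doxorubicin over control for the 9 genes in mutant (red) and WT (blue) cells, as edgeR estimates with bars of 1 SE from n = 2 libraries per group. Every point lies below 0, and the mutant points lie nearer to it, from -1.65 for Racgap1 to -0.19 for Cep55, than the WT points, from -1.93 to -0.56.

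The study's title names a signature that depends on Dino, and the difference between the responses is the comparison that bears on it. Since it chose the set, what follows is a description. The genotypes also differed in sex-linked expression, which cannot be told apart from the Dino genotype in these libraries. The mutant minus the WT response was 0.76 ± 0.12 for Hmmr and 0.67 ± 0.11 for Mki67 on the log2 scale. Of the other 7, Nusap1 had 0.51 ± 0.12, Cep55 0.37 ± 0.09, Ect2 0.33 ± 0.09 and Prc1 0.33 ± 0.10. The 3 lowest were Racgap1 at 0.28 ± 0.19, Tpx2 at 0.27 ± 0.11 and Anln at 0.27 ± 0.12. All 9 differences were above 0, as were 52.1% of those of all tested genes. Mki67 and Hmmr were among the 0.0326% of genes that edgeR called upward (0.0734% in either direction), which only restates how they were chosen. Without mutant doxorubicin library B, mutant control library A or WT control library B, edgeR called 0 genes upward at an adjusted p under 0.05, while 741, 579 and 686 genes differed in either direction at an unadjusted p under 0.05. Racgap1, Mki67 and Tpx2 had the deepest average falls, and of these Mki67 had a large difference and the other two small ones.

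As a ratio of mean CPM to the control, Hmmr kept 81.7% in mutant cells and 48.3% in WT cells, and Nusap1 68.3% and 48.1%. Cep55 kept 87.7% in mutant cells and 68.0% in WT cells, and Racgap1 31.9% and 26.2%. Over the 9 genes the share kept ran from 31.9% to 87.7% in mutant cells (median 53.3%) and from 26.2% to 68.0% in WT cells (median 42.8%). Leaving out one library at a time moved the difference of Mki67 between 0.59 and 0.73, that of Hmmr between 0.65 and 0.84 and that of Nusap1 between 0.39 and 0.62. That of Racgap1 ran from 0.06 without WT doxorubicin library B and 0.07 without mutant doxorubicin library A to 0.52 without WT doxorubicin library A, and that of Anln from 0.15 without WT doxorubicin library B to 0.37 without WT doxorubicin library A.

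The same values can be read as mutant against WT within each treatment, again without a test. In control cells the mutant minus WT log2 difference lay between -0.04 (Mki67, ± 0.07) and 0.05 (Cep55, ± 0.06). There 3 of the 9 were above 0, where 49.2% of all tested genes were. With doxorubicin it lay between 0.23 (Tpx2, ± 0.08, and Anln, ± 0.09) and 0.74 (Hmmr, ± 0.09), with Mki67 at 0.63 ± 0.08. Here 9 of 9 were above 0, where 49.7% of all tested genes were, and the choice of the set had used these libraries. As a ratio of mean CPM, the mutant doxorubicin level was 168% of the WT doxorubicin level for Hmmr and 155% for Mki67, while the mutant control level was 97.4% to 103% of the WT control level over the 9 genes.

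**Figure D4:**
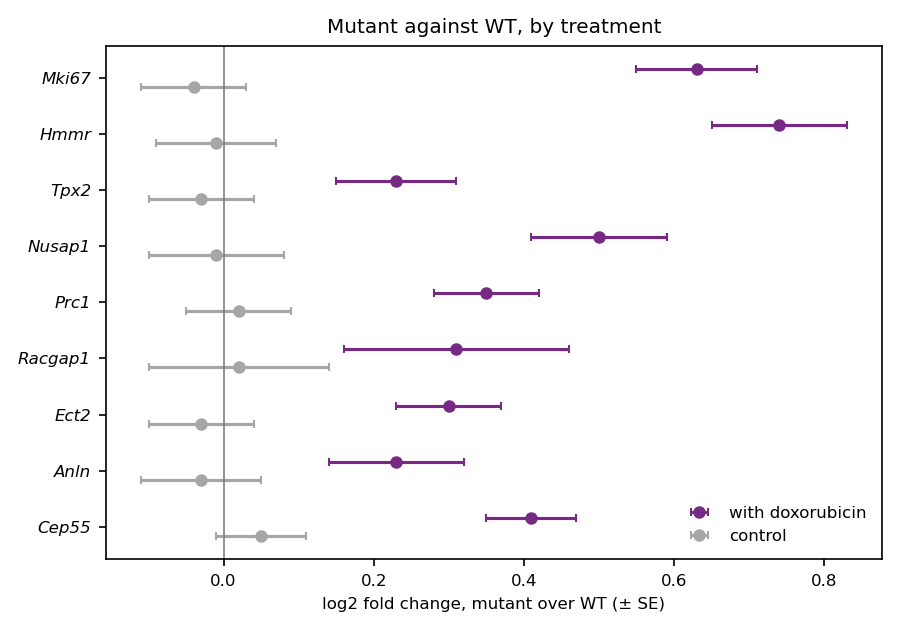
Log2 fold change of mutant over WT for the 9 genes with doxorubicin (purple) and in control cells (grey), as edgeR estimates with bars of 1 SE from n = 2 libraries per group. The grey points lie between -0.04 and 0.05, and the purple points lie between 0.23 and 0.74.

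The genotype difference averaged over both treatments is likewise orthogonal to the difference between responses, though it contains the same doxorubicin libraries, and it was tested. Hmmr (0.37 ± 0.06, edgeR adjusted p = 0.000217), Mki67 (0.30 ± 0.05, adjusted p = 0.000557), Nusap1 (0.24 ± 0.06, adjusted p = 0.0108), Cep55 (0.23 ± 0.04, adjusted p = 0.000931) and Prc1 (0.19 ± 0.05, adjusted p = 0.0135) were higher in mutant cells. These were 5 of 9, where 6.29% of all tested genes were called higher, and the median of the 9 was 0.19 against 0.00 over all genes. The choice of the set had used the doxorubicin libraries that make up most of this average. The calls and their count are therefore a description and not independent of the choice. Ect2 at 0.14 (adjusted p = 0.0570), Racgap1 at 0.16, Tpx2 at 0.10 and Anln at 0.10 did not pass. Racgap1 was at 0.06 without mutant doxorubicin library A or WT doxorubicin library B, at 0.26 without mutant doxorubicin library B and at 0.29 without WT doxorubicin library A, and Anln was at 0.05 without WT doxorubicin library B and 0.16 without WT doxorubicin library A. The calls of Prc1 and Nusap1 were lost without mutant control library A (adjusted p = 0.0510 and 0.101), and that of Prc1 also without mutant doxorubicin library B (adjusted p = 0.0565) or WT control library B (adjusted p = 0.0692). Ect2 was called without WT doxorubicin library A (edgeR adjusted p = 0.0121) and in 7 of 16 alternatives in all. With library totals as the only scaling, Prc1 (0.11) and Nusap1 (0.16) were not called. These values average a near-zero difference in controls with the one seen with doxorubicin, so they add no support to the doxorubicin difference. The genotypes differed in sex-linked expression in these same libraries, and this cannot be told apart from the Dino genotype.

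Other genes of spindle and cytokinesis were listed by role, without the 9, and are described by their counts, with no test between lists. Of 26 tested genes of spindle assembly and poles, 21 fell in the average response (32.6% of all tested genes did), 4 rose (33.7% did) and 1 was not called, with a median of -0.57 against 0.02 over all genes. Kif11, the motor that pushes the poles apart, fell by 1.55 ± 0.09 on the log2 scale (edgeR adjusted p = 9.48e-13), the spindle protein gene Ckap2l by 1.09 ± 0.07 and Bora, a cofactor of Aurora A in activating Plk1, by 1.00 ± 0.06. The mutant minus WT difference of Kif11 was 0.80 ± 0.18, a larger estimate with a larger SE than that of Mki67 or Hmmr, and it was not called. Ckap2, a microtubule-associated spindle protein, rose by 1.76 ± 0.06 and Fam83d, a spindle protein, by 1.68 ± 0.05, and the augmin subunit genes Haus8 and Haus2 rose by 0.70 ± 0.10 and 0.27 ± 0.08. The 5 other listed augmin genes fell, with -0.44 ± 0.12 for Haus1, -0.67 ± 0.05 for Haus3, -0.44 ± 0.15 for Haus4, -0.73 ± 0.27 for Haus5 and -0.51 ± 0.04 for Haus6.

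Of 17 tested genes of the midzone and chromosomal passenger complex, 13 fell (32.6% of all tested genes did), 3 rose (33.7% did) and 1 was not called, with a median of -0.61. Kif14, a motor that binds Prc1 and citron kinase, had -1.72 ± 0.07, Kif4, the motor that carries Prc1 to microtubule ends, had -1.14 ± 0.11, and Cdca8, the borealin subunit, had -1.10 ± 0.13 (edgeR adjusted p of 1.98e-07 or less). Psrc1, a microtubule-binding spindle protein, rose by 1.75 ± 0.08, the phosphatase gene Cdc14a by 0.85 ± 0.10 and Clasp2, a microtubule plus-end protein, by 0.43 ± 0.05.

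Of 20 names listed for the contractile ring, some of them alternative symbols, 14 were in the table. Of 13 tested contractile ring genes 8 fell (32.6% of all tested genes did), 2 rose (33.7% did) and 3 were not called, with a median of -0.37. The kinase genes Pkn2 (-0.86 ± 0.05) and Rock2 (-0.81 ± 0.05) and the formin Diap3 (-0.57 ± 0.11) fell, and the myosin light chains Myl12b (0.37 ± 0.08) and Myl12a (0.15 ± 0.05) rose. Septin symbols are among 27 that the table gives as dates, and septins were not used here. Of 21 tested abscission genes 2 fell (32.6% of all tested genes did), 11 rose (33.7% did) and 8 were not called, with a median of 0.18. Spast, the microtubule-severing spastin, fell by 0.37 ± 0.05 on the log2 scale, and the other was Chmp6, an ESCRT-III gene averaging 0.381 CPM (-1.29 ± 0.40). By contrast the ESCRT-III genes Chmp1b (0.82 ± 0.05) and Chmp5 (0.41 ± 0.04) and the Cep55 partner Pdcd6ip (0.40 ± 0.05) rose. The differences between the mutant and WT responses had medians of 0.28 in the spindle assembly list, 0.28 in the midzone list, 0.05 in the contractile ring list and -0.05 in the abscission list, against 0.01 over all genes. No gene of the 4 lists was called in that difference by edgeR, where 0.0734% of all tested genes were. With so small a share, the lack of calls in lists of this size says little about them.

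**Figure D5:**
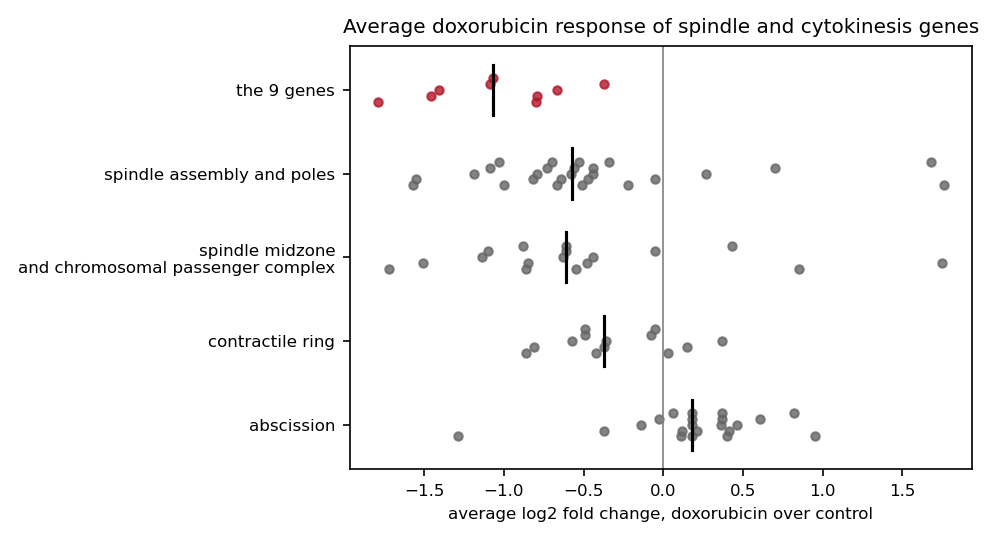
Average log2 fold change of doxorubicin over control, from edgeR, for the 9 genes (red) and for 77 tested genes of 4 lists by role (grey), with 1 point per gene and a black bar at the median. The medians are -1.07 for the 9 genes, -0.57, -0.61 and -0.37 for the first 3 lists and 0.18 for abscission genes.

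Pearson's r of log2 CPM over the 8 libraries ranked 6986 other tested genes, those averaging 4 CPM or more, by likeness to Mki67 and to Hmmr. The 3 nearest to Mki67 were Plk4 (r = 0.9986), Pif1, a DNA helicase (0.9969), and Fbxo5, an inhibitor of the anaphase-promoting complex (0.9963). Plk4, the kinase of centriole duplication, averaged 36.8 and 66.3 CPM in mutant doxorubicin and mutant control libraries, and 27.0 and 67.1 CPM in WT doxorubicin and WT control libraries. The 3 nearest to Hmmr were Top2a (r = 0.9784), Sgol2, a shugoshin that guards cohesin (0.9765), and Bub1, a spindle checkpoint kinase (0.9726). Top2a, which encodes the topoisomerase II alpha that doxorubicin poisons, averaged 97.0 and 132 CPM in mutant doxorubicin and mutant control libraries, and 59.6 and 118 CPM in WT doxorubicin and WT control libraries. Like Hmmr, Top2a, Sgol2 and Bub1 were lowest in WT doxorubicin libraries, and a likeness over 8 libraries that share a treatment is a description only.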

How the data were processed

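RNA was sequenced in 8 libraries. The labels name both the TruSeq RNA Access kit and 3' sequencing, and this was not resolved. The deposited values are raw read counts per gene name, with no normalization. Per the submitters' processing notes Bowtie2 and HTSeq were used with genome build mm9. The annotation, the strand setting and the handling of reads with several matches are not given in the sources used here.

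The analysis used edgeR 4.0.16 in R 4.3.3. Filtering by filterByExpr over the groups, with a minimum count of 10 and a minimum total of 15, kept 12255 of 30419 names. CPM values and tests use TMM factors. One quasi-likelihood fit over the 8 libraries had a mean for each group. Tests were two-sided, with Benjamini-Hochberg adjustment across the 12255 genes, and 0.05 as the limit for a call. The SE of a log2 fold change is its absolute value over the root of F. Library totals ran from 25482805 to 33285171, and the biological coefficient of variation was 0.0636. The pipeline was tested on simulated data.

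The 9 genes, the wider lists and the motifs were chosen with earlier results of these data known. In each wider list the text names up to 3 called genes per direction with the largest average response, from those averaging 4 CPM or more, and for likeness the 3 genes nearest to Mki67 and to Hmmr. Kif11's difference, Chmp6 and the augmin genes other than Haus8 were named after their values were seen. Alternatives tried were DESeq2 size factors, upper-quartile factors, library totals only, DESeq2 1.42.0, limma-voom (limma 3.58.1), no filter, 5 CPM in 2 libraries, the library letter as a block, only the 4 libraries of a genotype, leaving out each library, and TTTGAA alone as CHR.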

Additional observations from a re-analysis of the deposited data

Results flagged for a closer look

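The mutant minus WT difference in the doxorubicin response was 0.67 for Mki67 and 0.76 for Hmmr on the log2 scale. Both stood out because edgeR called the difference between the responses of the genotypes over all genes, which is also why the set was chosen, so the call only restates the choice and these values are a description.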

How the results depend on the processing

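All 9 genes were called lower in the average doxorubicin response under each of the 16 alternatives, and so was each of their WT responses under 17. The 9 differences between responses were above 0 under each of the 16. The number of genes higher in mutant cells in the average genotype difference, 5 as reported, was 3 with library totals only, 6 with upper-quartile factors, DESeq2, limma-voom, no filter, the filter of 5 CPM or the block, each adding Ect2, and 3 to 6 when one library was left out, the 3 without mutant control A. Library totals also changed the split of all genes called in that comparison to 488 higher and 1444 lower, against 771 higher and 784 lower. The number of all genes called in the difference between responses, 9 as reported, was 18 with DESeq2, 4 with limma-voom, 48 with no filter and 5 with the filter of 5 CPM. It ran from 0 to 51 when one library was left out: edgeR called 0 without mutant control A or WT control B (579 and 686 genes at an unadjusted p under 0.05) and 51 without WT doxorubicin B. The cause was not tested. Where a group was left with 1 library, that library was assumed to vary like the others. With the replicate block on the library letter that number was 14, and Ect2 was called in the average genotype difference (adjusted p = 0.0427). The correlation of the A minus B deviations between groups ran from -0.0249 to 0.0314, so the letters give no sign of pairing. The CHR count was 7 with TTTGAA alone as well.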
